A study of Rattus norvegicus with 66 samples.

Results

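The 9 genes described here encode scaffold proteins of the excitatory postsynaptic density, measured in the hippocampus of rat pups: Shank1, Shank2 and Shank3, the SAPAP genes Dlgap1, Dlgap2, Dlgap3 and Dlgap4, Dlg4 and Homer1. They were chosen by symbol in the gene table that accompanies the counts. All 9 were found, as 1 entry each among the 37777 genes counted, and all 9 passed the filter on low counts in every comparison. Their identifiers are gene1817, gene3642 and gene18158 for Shank1 to Shank3, gene21855, gene31212, gene13904 and gene9653 for Dlgap1 to Dlgap4, gene23029 for Dlg4 and gene4915 for Homer1.

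The postsynaptic density is the protein mesh under the membrane of an excitatory synapse that holds glutamate receptors opposite the site of transmitter release. PSD-95, the product of Dlg4, lies next to the membrane and binds NMDA receptors. SAPAP proteins, made by the Dlgap genes, attach PSD-95 to Shank proteins, and Shank proteins bind Homer, which reaches metabotropic glutamate receptors. In the hippocampus most of these synapses form after birth, and Shank and SAPAP genes are among those in which mutations have been linked to autism and related conditions.

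The samples were dorsal hippocampus of Long Evans rats on postnatal day (PND) 6, from both sides, with some lateral neocortex left on the tissue. Dams received Aroclor 1254, a mixture of polychlorinated biphenyls, at 0.5 or 5 mg/kg (Aro0.5, Aro5), or bisphenol A, a plastic monomer with estrogenic activity, at 0.5 or 5 mg/kg (BPA0.5, BPA5), through the chow from premating into lactation. Other dams received chlorpyrifos, an organophosphate insecticide, by subcutaneous injection at 1 or 3 mg/kg (CPF1, CPF3) in pregnancy and lactation. Feeding controls (CONF) had soy-free chow and injection controls (CONSC) had the vehicle, called saline in the labels and dimethyl sulfoxide in the methods. The 64 pups, 41 males and 23 females, formed 13 groups, since the low doses were sequenced in males only. Males comprised 4 CONF, 5 CONSC, 4 Aro0.5, 4 BPA0.5, 4 CPF1, 6 Aro5, 7 BPA5 and 7 CPF3 pups. Females comprised 5 CONF, 5 CONSC, 5 Aro5, 4 BPA5 and 4 CPF3 pups. Dams rather than pups were dosed, and some pups came from the same litter.

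The 66 libraries held 10644138 to 86206550 counts, and the median pup total was 14015105 in male controls against 30238112.5 in female controls. The Y-linked gene Kdm5d had 323 to 1384 counts in every male library and 0 in every female library. All 5 hippocampus markers examined had counts in every pup, with Zbtb20 lowest at 0.835 to 8.07 CPM, counts per 1000000 of a pup's total. Markers of neighbouring tissue were also present in every pup, so that Tcf7l2, typical of thalamus, ranged from 23.7 to 707 CPM. Titles of the male libraries and of the female control libraries are spelled in 2 ways, here called form A and form B. Among males, control libraries were of form A but for 1, low-dose libraries were all of form A, and high-dose libraries were all of form B. Form and high dose in males therefore cannot be told apart. Of the female control libraries, 5 had form A and 6 had form B. The high-dose female libraries were assigned to neither form, and the part of form in comparisons that hold them was not tested.

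Levels were given as CPM, the gene's share of a pup's counts, which does not allow one gene to be ranked against another because transcript lengths differ. In bulk tissue, fewer cells of a type and less RNA per cell cannot be told apart. Every member had at least 34 counts in every pup. Shank2 and Dlgap2 had the fewest, 34 to 925 and 41 to 655 counts per pup. Shank1, Shank2, Shank3, Dlgap3, Dlgap4 and Dlg4 each had their 5 highest group means in the 5 female groups. Homer1, whose short transcript is an immediate early product, had its highest mean in Aro5 males, 77.9 ± 16.9 CPM (SD, n = 6), and its lowest in Aro0.5 males, 44.7 ± 4.28 CPM (SD, n = 4).

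Neighbours in the order of the 13 group means seldom differed beyond their spread. The step from the lowest female group to the highest male group exceeded the larger SD of the pair for Shank3, from CPF3 females to BPA5 males, for Dlgap3, from CONF females to BPA5 males, and for Dlgap4, from CONSC females to CPF3 males. The only other such step was at the bottom of the order of Dlgap4, from Aro0.5 to BPA0.5 males. BPA0.5 males had the lowest mean for Shank1, Shank2, Shank3, Dlgap3, Dlgap4 and Dlg4. Dlgap1 had nearly the same level everywhere, with group means from 144 to 161 CPM.

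**Figure D1:**
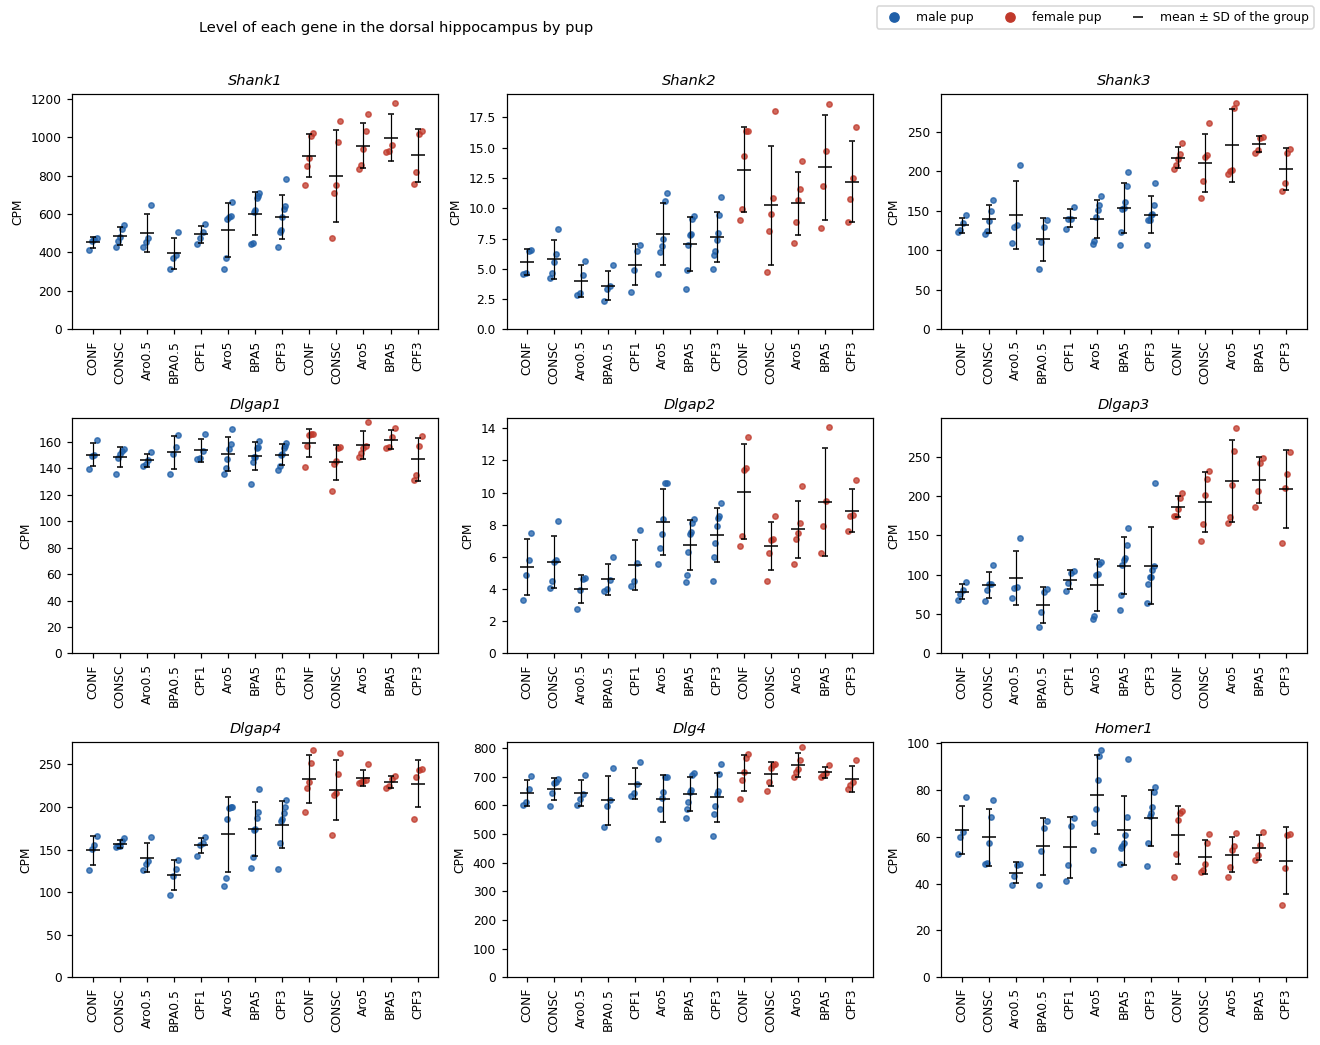
CPM of each member (vertical axes, each from 0) in the 64 pups by group (horizontal axes); blue points are males, red points are females, and black bars are group means ± SD. Dlgap3, Shank3 and Dlgap4 of all 10 female controls lie above those of all 9 male controls, whereas Dlgap1 and Homer1 overlap.

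Female controls had higher levels than male controls for 7 of the 9 members, and none was lower. The largest difference was in Dlgap3, 2.33-fold, followed by Shank2, 2.09-fold, and Shank1, 1.85-fold. Shank3, Dlgap2 and Dlgap4 were 1.62-fold, 1.54-fold and 1.52-fold higher, and Dlg4 1.12-fold. Of all 15763 genes tested, 30.9% passed the same threshold, an adjusted p under 0.05 in edgeR's quasi-likelihood test, and 17.8% passed it with higher levels in females. The median log2 difference was 0.62 over the members and -0.02 over all genes tested.

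Among the Shank genes, which encode the large scaffolds of the deep layer of the density, Shank3 ranged from 121 to 164 CPM in the 9 male controls with a median of 134, and from 166 to 261 CPM in the 10 female controls with a median of 217. The groups did not overlap, and the fitted log2 difference was 0.69 ± 0.07 (SE; adjusted p = 2.41e-07). Shank1 ranged from 412 to 544 CPM with a median of 468 in males and from 473 to 1084 CPM with a median of 869 in females. Of the females, 9 lay above every male, and 1 CONSC female, at 473 CPM, lay within the male range. The log2 difference of Shank1 was 0.89 ± 0.12 (SE; adjusted p = 2.99e-06). Shank2, which had few counts, ranged from 4.26 to 8.31 CPM with a median of 5.55 in males and from 4.73 to 18.0 CPM with a median of 10.4 in females. Again 8 females lay above every male, and the log2 difference was 1.07 ± 0.20 (SE; adjusted p = 0.000354).

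Among the SAPAP genes, which encode the link between PSD-95 and Shank, Dlgap3 ranged from 67.3 to 112 CPM with a median of 80.5 in male controls and from 143 to 232 CPM with a median of 191 in female controls. No female value reached down to the male range, and the log2 difference was 1.22 ± 0.10 (SE; adjusted p = 3.43e-09). Dlgap4 ranged from 126 to 165 CPM with a median of 155 in males and from 168 to 268 CPM with a median of 226 in females. Its groups touched without overlap, and the log2 difference was 0.60 ± 0.08 (SE; adjusted p = 2.88e-06). Dlgap2 ranged from 3.33 to 8.26 CPM in males and from 4.52 to 13.4 CPM in females, with 4 females above every male and a log2 difference of 0.62 ± 0.19 (SE; adjusted p = 0.0171). Dlgap1, at 136 to 161 CPM in males and 123 to 166 CPM in females, did not pass the test, and its log2 difference of 0.06 had an 95% interval from -0.04 to 0.17.

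Dlg4 rose by a small amount. It ranged from 599 to 704 CPM with a median of 656 in male controls and from 621 to 779 CPM with a median of 723 in female controls, and the groups overlapped. Its log2 difference was 0.17 ± 0.05 (SE; adjusted p = 0.0164). Homer1, whose product binds Shank and metabotropic receptors, ranged from 48.4 to 77.1 CPM in males and from 42.8 to 70.7 CPM in females. It did not pass the test, with a log2 difference of -0.08 and an interval from -0.30 to 0.14. The counts are per gene, so that the long and short Homer1 transcripts cannot be told apart.

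Non-overlap was counted over all genes as well. Every female control lay above every male control for 3 of the 9 members, Shank3, Dlgap3 and Dlgap4, and for 4.57% of all genes tested.

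Promoters of 6 of the 9 members were found in RefSeq's table for the build GRCr8, as 300 bases from 250 before to 50 after the annotated start. They are shown for the 3 members without overlap between the sexes and for the 2 members that did not pass the test, to set them side by side. The windows, all on the plus strand, are chr5:144800015-144800314 for Dlgap3, chr7:122448073-122448372 for Shank3, chr3:165584110-165584409 for Dlgap4, chr9:117613834-117614133 for Dlgap1 (the first of 2 annotated starts) and chr2:26278762-26279061 for Homer1. CG dinucleotides, the sites of DNA methylation, are in capitals.
Dlgap3: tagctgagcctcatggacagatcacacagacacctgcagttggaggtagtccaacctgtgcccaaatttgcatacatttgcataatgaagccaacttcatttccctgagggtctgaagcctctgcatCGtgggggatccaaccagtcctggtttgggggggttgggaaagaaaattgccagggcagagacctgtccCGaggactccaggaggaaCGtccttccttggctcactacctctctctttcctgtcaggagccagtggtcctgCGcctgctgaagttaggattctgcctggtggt
Shank3: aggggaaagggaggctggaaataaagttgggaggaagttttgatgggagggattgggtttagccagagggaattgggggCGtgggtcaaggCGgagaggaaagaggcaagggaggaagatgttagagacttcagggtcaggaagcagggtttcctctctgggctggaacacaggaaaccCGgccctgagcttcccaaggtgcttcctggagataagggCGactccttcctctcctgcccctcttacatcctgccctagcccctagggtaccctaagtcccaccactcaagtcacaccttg
Dlgap4: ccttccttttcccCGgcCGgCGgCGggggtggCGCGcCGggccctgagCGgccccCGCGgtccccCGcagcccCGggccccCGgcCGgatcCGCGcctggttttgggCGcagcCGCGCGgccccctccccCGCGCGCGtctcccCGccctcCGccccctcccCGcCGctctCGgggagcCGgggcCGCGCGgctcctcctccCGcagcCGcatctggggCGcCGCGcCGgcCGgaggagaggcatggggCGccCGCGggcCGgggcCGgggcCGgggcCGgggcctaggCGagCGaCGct
Dlgap1: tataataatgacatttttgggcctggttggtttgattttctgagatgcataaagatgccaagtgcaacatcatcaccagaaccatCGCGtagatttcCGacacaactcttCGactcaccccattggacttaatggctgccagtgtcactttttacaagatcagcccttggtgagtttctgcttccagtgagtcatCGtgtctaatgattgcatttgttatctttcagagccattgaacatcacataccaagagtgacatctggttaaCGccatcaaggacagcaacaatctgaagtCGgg
Homer1: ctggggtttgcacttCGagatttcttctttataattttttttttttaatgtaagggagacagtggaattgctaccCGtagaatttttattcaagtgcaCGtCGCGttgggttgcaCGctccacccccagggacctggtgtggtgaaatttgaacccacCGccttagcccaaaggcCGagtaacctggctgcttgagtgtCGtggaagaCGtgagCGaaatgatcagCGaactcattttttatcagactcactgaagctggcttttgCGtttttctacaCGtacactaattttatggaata

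Base composition varied within both sets. Dlgap4 held 50 CG dinucleotides at 85.3% GC, which was above 99.3% and 99.9% of the 33469 promoters in the table. Dlgap3 and Shank3 held 4 each, fewer than the table's median of 7, at 54.0% and 56.3% GC. Dlgap1 held 7 at 43.3% GC, and Homer1 held 14 at 44.7% GC. The GC box GGGCGG was found on either strand 2 times in Dlgap4 and in no other member, and in 33.1% of all promoters. TATAAA was found 1 time in Homer1 and 2 times in the other window of Dlgap1, and in 14.2% of all promoters. Neither the cyclic AMP response element TGACGTCA nor its core TGACG, which lies within it, occurred in any member's window. They occurred in 1.8% and 21.2% of all promoters. CACGTG and the Egr1 motif GCGGGGGCG, present in 6.4% and 2.7% of all promoters, were also without a match. No match says only that these letters are not in the window.

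The difference between the sexes was examined within library name forms, with the name form as a covariate, within litters and in treated pups. With form A libraries alone, 5 females and 9 males, 5 members passed the test, against 11.7% of all genes. These were Shank1 with a log2 difference of 0.62, Shank2 with 0.82, Shank3 with 0.66, Dlgap3 with 1.19 and Dlgap4 with 0.46. Dlgap2, at 0.43, had an adjusted p of 0.199, and Dlg4, at 0.11, one of 0.368. With the name form as a covariate and each library entered separately, the same 5 members passed, against 18.9% of all genes. Shank1 then had a log2 difference of 0.67, Shank2 0.86, Shank3 0.64, Dlgap3 1.13 and Dlgap4 0.46. Dlgap2 had 0.38 (adjusted p = 0.146) and Dlg4 0.12 (adjusted p = 0.140). With the litter as a block (7 litters had control pups of both sexes), the same 5 members passed, against 20.2% of all genes. Dlgap2 then had a log2 difference of 0.58 and an adjusted p of 0.0540, and Dlg4 0.12 and 0.139. Without pups collected outside the time window of 10.30 to 13.20, Dlg4 alone was lost (adjusted p = 0.0843), and 23.2% of all genes passed.

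In the 33 high-dose pups, fitted with treatment as a covariate, 7 members differed between the sexes, against 40.1% of all genes. Of these, 6 were higher in females, and Homer1 was lower, with a log2 difference of -0.36 ± 0.10 (SE; adjusted p = 0.00440). Dlgap3 again had the largest difference, 1.13 ± 0.16 (SE), and Shank1, Shank2, Shank3 and Dlgap4 differed by 0.80, 0.71, 0.66 and 0.45. Dlgap1 and Dlgap2 did not pass, with 0.10 and 0.26. Male libraries in this fit were all of form B, and female libraries were assigned to neither form. For Shank1, Shank3, Dlgap3 and Dlgap4 all 13 high-dose females lay above every male control, that is, for 4 of the 9 members against 4.92% of 15789 genes. Of the 32 treated males, 3 lay above the lowest female control for Dlgap3, 5 for Shank3, 14 for Dlgap4 and 21 for Shank1.

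**Figure D2:**
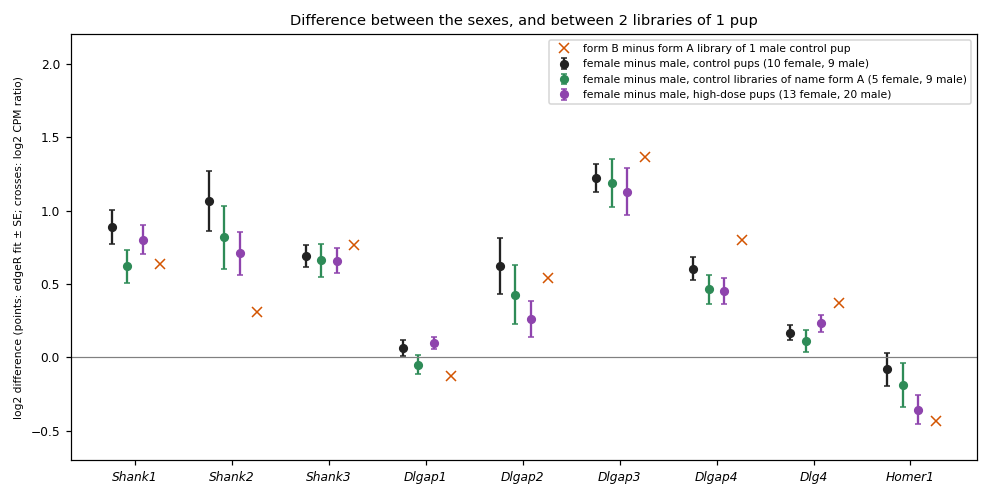
Log2 difference between females and males for each member (vertical axis) in control pups (black), form A control libraries (green) and high-dose pups (purple), as fitted values ± SE; orange crosses are the log2 CPM ratio of the form B to the form A library of male control pup N2-2y. The crosses of Dlgap3, Shank3 and Dlgap4, at 1.37, 0.77 and 0.80, lie at or above the differences between the sexes.

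Some members differed as much between both libraries of 1 male control pup as between the sexes. Pup N2-2y, a CONF male of litter N2, had 41.4 CPM of Dlgap3 in its form A library and 107 CPM in its form B library, a log2 ratio of 1.37. Shank3 was 92.0 and 156 CPM, Dlgap4 was 109 and 189 CPM, and Shank1 was 358 and 556 CPM. Homer1 went the other way, 89.1 and 65.9 CPM, and Dlgap1 differed little, 157 and 144 CPM. Among the 12582 genes with at least 50 counts in both libraries, the ratio of Dlgap3 was above 99.6% of genes, that of Dlgap4 above 95% and that of Shank3 above 94.3%. Over these genes the log2 ratio between both libraries and the sex difference fitted without this pup had a Pearson r of 0.524. Genes are not independent replicates, and this value describes 1 pair of libraries. In the sex fit without N2-2y, the male libraries were all of form A and the female libraries of both forms. A difference between forms would therefore enter both quantities, and r does not separate form from sex.

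The other pup with 2 libraries, CONF female N4-3x, did not show this, though the labels give its libraries different times of collection. Its Dlgap3 was 186 CPM in form A and 179 CPM in form B, its Shank3 240 and 229 CPM, and its 9 log2 ratios lay between -0.16 and 0.20. For Dlgap3 and Shank3 the form B library of N2-2y was below every female control library, by little for Shank3 (156 CPM against 166 CPM or more). For Dlgap4 it lay above 1 of them, at 168 CPM. Without N2-2y 7 members were again called between the sexes, with log2 differences of 1.20 for Dlgap3, 0.68 for Shank3 and 0.60 for Dlgap4. Leaving out any 1 control pup gave 7 members, and 4258 to 5692 of all genes. The female RNA-seq assay was repeated, as the study's text says, and whether male and female libraries were made side by side is not given in the sources used here. The part of library preparation in the difference between the sexes was not tested.

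**Figure D3:**
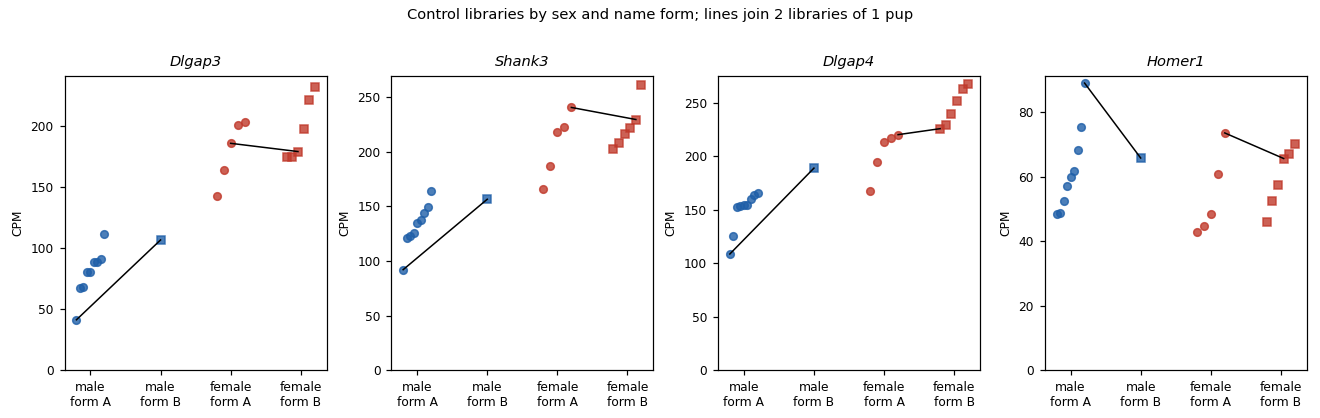
CPM (vertical axes, from 0) of Dlgap3, Shank3, Dlgap4 and Homer1 in each of the 21 control libraries by sex and name form; circles are form A, squares are form B, and black lines join both libraries of pups N2-2y (male) and N4-3x (female). The male pair spans 41.4 to 107 CPM for Dlgap3, and the female pair 179 to 186 CPM.

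Within female controls, libraries of form B exceeded those of form A in fitted level for all 9 members, by log2 differences from 0.14 to 0.56. Only Shank1 passed the test, with 0.52 ± 0.11 (SE; adjusted p = 0.0416), against 1.43% of all genes. Shank1 ranged from 473 to 815 CPM in 5 form A libraries and from 889 to 1084 CPM in 6 form B libraries, without overlap. Dlgap4, which ranged from 168 to 220 CPM in form A and from 226 to 268 CPM in form B, did not overlap either but did not pass (adjusted p = 0.0633). Every form B library lay above every form A library for these 2 of the 9 members and for 1.13% of all genes. Both libraries of N4-3x were in this fit. The call of Shank1 was lost when any of 8 libraries was left out, so that the count ranged from 0 to 3 members.

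Related gene groups were compared in the same fits. Between the sexes in controls 30.9% of all genes passed, and 17.8% passed with higher levels in females. Of 27 other genes of the excitatory density that were tested, 13 were higher in female controls, 1 was lower and 13 did not pass, with a median log2 difference of 0.23. Nrgn, which encodes the calmodulin-binding protein neurogranin, had the largest difference, 1.09 ± 0.18 (SE; adjusted p = 8.71e-05). Begain, a partner of PSD-95, differed by 0.78, Agap2 by 0.65, Iqsec2 by 0.63, Homer3 by 0.59, Baiap2 by 0.53, Camk2a by 0.47, Lzts3 by 0.44, Kalrn by 0.36, Camk2b by 0.29 and Iqsec1 and Arhgef7 by 0.23 each. Cript, whose product binds the third PDZ domain of PSD-95, was lower by 0.41 (log2 difference -0.41 ± 0.08, SE). Among 7 glutamate receptor genes, Grin1, the obligatory NMDA receptor subunit, was higher by 0.42 and 6 did not pass. Among 3 inhibitory postsynaptic genes, Lhfpl4, needed to anchor GABA-A receptors, was higher by 0.83. In the comparison of name forms in female controls, Grin1 also passed, with 0.26.

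Some cell markers passed the test between the sexes in controls, as did 30.9% of all genes. Rbfox3 and Tubb3 of 6 neuron markers were higher in female controls, by 0.68 and 0.48, while the summed CPM of the 6 was 6854 to 7659 in males and 5773 to 8267 in females. Of 5 oligodendrocyte lineage markers, Olig1 and Mbp were higher, by 0.49 and 0.33, and Pdgfra was lower. Slc1a3 of 5 astrocyte markers was lower, Cldn5 of 3 endothelium markers was higher, by 0.52, and Wfs1 and Grik4 of 5 hippocampus markers were higher. None of 4 thalamus, 4 neocortex, 5 striatum, 4 choroid plexus and 5 microglia markers passed. Their summed CPM overlapped widely, for example with striatum markers at 89.1 to 455 CPM in male and 130 to 960 CPM in female controls. Of 8 immediate early genes, 4 were higher in females: Junb by 1.73, Fosb by 0.75, Egr1 by 0.64 and Nr4a1 by 0.47. Their summed CPM was 32.6 to 55.4 in males and 48.7 to 99.3 in females. The summed CPM of the 3 endothelium markers was 58.7 to 79.0 in males and 83.9 to 107 in females, without overlap. The part of these in the members' difference was not tested.

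In high-dose males none of the 9 members passed the test against the 9 male controls for any chemical. Among the 16393 genes tested, 0.195% passed for Aro5, 0.189% for BPA5 and 0.159% for CPF3, in either direction. DESeq2 called none of the 9 either. In each comparison 8 of the 9 fitted changes were positive, Dlg4 being the exception. Of all genes, 49.5% were positive for Aro5, 52.2% for BPA5 and 50.8% for CPF3. All 3 comparisons share the same controls, the members vary together, and every high-dose male library was of form B. In female controls all 9 members were fitted higher in form B. An unadjusted p under 0.05 was reached by 3 members in Aro5 males, 1 in BPA5 males and 3 in CPF3 males, all higher, against 7.29%, 4.07% and 5.33% of all genes that were higher at that level.

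The members nearest to the threshold in Aro5 males were Dlgap2 and Homer1. Dlgap2 ranged from 5.53 to 10.6 CPM with a median of 7.88 in the 6 Aro5 males, against 3.33 to 8.26 CPM with a median of 5.66 in male controls. The groups overlapped, and the log2 change was 0.56 ± 0.18 (SE; adjusted p = 0.243). Homer1 ranged from 54.1 to 96.9 CPM in Aro5 males, with a log2 change of 0.37 ± 0.14 (SE; adjusted p = 0.292), and Shank2 from 4.60 to 11.2 CPM, with 0.47 ± 0.21 (SE; adjusted p = 0.355). Dlgap3 ranged from 43.2 to 116 CPM, below and above the control range, and its log2 change of 0.07 had an interval from -0.39 to 0.54.

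Markers of neocortex layers had a summed level of 363 to 602 CPM in Aro5 males and 172 to 465 CPM in male controls, and 3 of the 4 had an unadjusted p under 0.05, all higher. The part of this tissue in the members' values was not tested.

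These Aro5 values depended on the pups used, and 2 of the 6 Aro5 males and 3 of the 9 control males were collected outside the time window of 10.30 to 13.20. With the 4 Aro5 and 6 control males inside it, Dlgap2 rose by 0.85 ± 0.21 (log2, SE; adjusted p = 0.0315) and Homer1 by 0.60 ± 0.17 (log2, SE; adjusted p = 0.0427), that is, 2 of 9 members against 4.96% of all genes. Of these 4 Aro5 males, 120-1y and 120-2y were littermates that this fit treats as separate, and all 4 had form B libraries. Inside the window Homer1 was 72.0 to 96.9 CPM in Aro5 males and 48.4 to 77.1 CPM in controls, and in the 2 Aro5 males outside it 54.1 and 65.7 CPM. Dlgap2 was 6.59 to 10.6 CPM inside, against 3.33 to 7.51 CPM in controls, and 5.53 and 7.42 CPM outside. Whether the time of day, the pups or their litters made this difference was not tested.

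In BPA5 males Shank1 ranged from 443 to 709 CPM with a median of 619, against 412 to 544 CPM in controls. Its log2 change of 0.36 ± 0.13 (SE) did not pass. In CPF3 males Shank1 ranged from 431 to 780 CPM, with 0.32 ± 0.13 (SE; adjusted p = 0.353), and Shank2 and Dlgap2 had log2 changes of 0.42 and 0.41 that did not pass either. Dlgap3 in CPF3 males had a log2 change of 0.43 with an interval from -0.01 to 0.87. The CPF3 pup 36-3y was at 217 CPM of Dlgap3, while the other 6 were at 64.2 to 111 CPM, and without it the log2 change was 0.18. The same pup was the highest of its group for Shank1, Shank3 and Dlgap4, at 780, 185 and 208 CPM, and the lowest for Homer1, at 47.3 CPM.

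Markers of neighbouring tissue moved here too. Of the 4 neocortex markers, 2 had an unadjusted p under 0.05 in BPA5 males and 1 in CPF3 males, all higher, with median log2 changes of 0.39 and 0.44 over the list. Their summed level was 181 to 639 CPM in BPA5 and 245 to 688 CPM in CPF3 males, against 172 to 465 CPM in male controls. In CPF3 males 3 of 5 microglia markers were lower at that level, 47.6 to 87.6 CPM in sum against 57.1 to 107 CPM, and so were 2 of 5 striatum markers, 108 to 509 CPM against 89.1 to 455 CPM. An oligodendrocyte lineage marker was lower in both groups and an astrocyte marker in CPF3 males. The part of these in the members' values was not tested.

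In low-dose males none of the 9 members passed the test either, in edgeR or in DESeq2. Among the 16139 genes tested, 0.124% passed for Aro0.5, 0.0434% for BPA0.5 and 0% for CPF1. In BPA0.5 males 8 of the 9 fitted changes were negative, while 49.6% of all genes had positive changes. Dlgap4 was at 97.2 to 138 CPM in the 4 BPA0.5 pups and at 126 to 165 CPM in male controls. Its log2 change was -0.32 ± 0.09 (SE; adjusted p = 0.280). Shank2 was at 2.33 to 5.29 CPM in BPA0.5 pups, with -0.61 ± 0.24 (SE; adjusted p = 0.491), and Dlgap3 at 33.2 to 81.9 CPM, with -0.40 ± 0.20 (SE; adjusted p = 0.589). In Aro0.5 males Homer1 was at 39.2 to 48.2 CPM, just below the lowest of the 9 controls at 48.4 CPM, and its log2 change was -0.38 ± 0.15 (SE; adjusted p = 0.193). Every Aro0.5 male lay below every male control for this 1 member and for 1.34% of all genes. In CPF1 males no member reached an unadjusted p under 0.05, against 2% of all genes, and the changes lay between -0.13 and 0.18. An unadjusted p under 0.05 was reached by 1 member in Aro0.5 and 2 in BPA0.5 males, all lower, against 8.97% and 5.48% of all genes that were lower at that level.

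Other measures moved in the same low-dose pups. The share of counts from mitochondrial genes was 8.34 to 9.68% in the 4 Aro0.5 and 8.23 to 10.3% in the 4 BPA0.5 males, above the 6.30 to 8.07% of every male control, and 6.51 to 7.41% in CPF1 males. In Aro0.5 males all 5 striatum markers had an unadjusted p under 0.05 and were lower, with a summed level of 80.4 to 242 CPM against 89.1 to 455 CPM in male controls. Of 4 thalamus markers, 3 were higher at that level (625 to 1065 CPM in sum, against 381 to 1113 CPM), and 2 of 4 neocortex markers (150 to 284 CPM against 172 to 465 CPM) and 2 of 4 choroid plexus markers (835 to 3075 CPM against 1251 to 3867 CPM) were lower. Of 5 astrocyte markers 2 were higher, as was 1 each of the neuron, endothelium and hippocampus markers. In BPA0.5 males 1 neuron marker was higher and 1 lower, and in CPF1 males none of the markers reached that level. The part of these in the members' values was not tested. The number of genes called in all was set by single pups: it was 20 in Aro0.5 males but 0, 1 and 2 without the Aro0.5 pups 94-3y, 106-3y and 98-8y and 322 without the control pup 8-4y, and it was 7 in BPA0.5 males but 0 and 1 without the BPA0.5 pups 73-4y and 72-4y and 31 without 75-1y. In Aro0.5 males it was also 12 without either of the control pups N2-2y and 11-4y and 13 without 13-1y, and in BPA0.5 males 21 without 69-4y, 19 without the control pup N3-4y and 15 without the Aro0.5 pup 105-5y.

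Low and high doses of bisphenol A gave values of opposite sign for every member but Dlgap1 and Dlg4. They were -0.23 in BPA0.5 and 0.36 in BPA5 males for Shank1, -0.32 and 0.19 for Dlgap4, and -0.61 and 0.31 for Shank2. Dlgap3 had -0.40 and 0.43, Dlgap2 -0.23 and 0.27, Shank3 -0.22 and 0.19, and Homer1 -0.10 and 0.04. Aro0.5 and Aro5 males also differed in sign for Shank2 (-0.45 and 0.47), Dlgap2, Homer1, Dlgap4 and Dlg4, but not for the other members. CPF1 and CPF3 males did so only for Shank2, Dlgap2, Homer1 and Dlg4. All doses are measured against the same male controls, and none of these values passed the test. The name forms of the libraries differ between the doses. The difference between doses was not tested.

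In high-dose females none of the 9 members passed the test in edgeR or in DESeq2, and 0% of the 16992 genes tested did so for each chemical. None reached an unadjusted p under 0.05, against 3.23% of all genes for Aroclor 1254, 4.08% for bisphenol A and 8.79% for chlorpyrifos. The fitted changes lay between -0.15 and 0.23 in Aro5 females, between -0.01 and 0.24 in BPA5 females and between -0.16 and 0.17 in CPF3 females. Dlgap3 had the largest or second largest positive change with each, 0.23, 0.23 and 0.17, and the interval in Aro5 females ran from -0.04 to 0.51. Shank1 was at 836 to 1117 CPM in the 5 Aro5 females, at 922 to 1178 CPM in the 4 BPA5 females and at 756 to 1031 CPM in the 4 CPF3 females, all within or near the 473 to 1084 CPM of female controls.

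**Figure D4:**
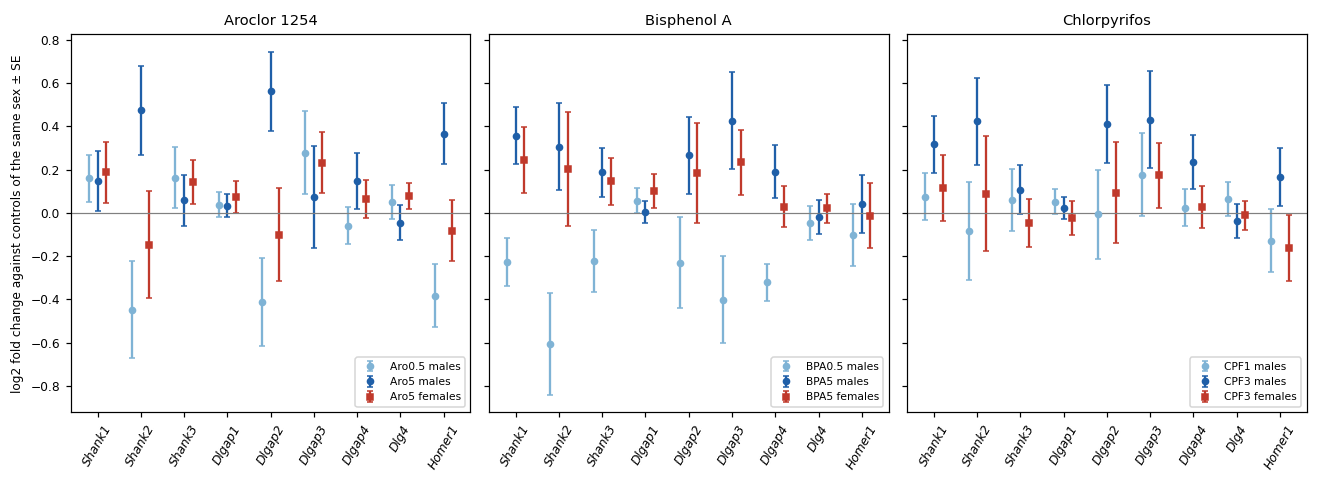
Log2 fold change against controls of the same sex ± SE (vertical axis) for each member by chemical; pale blue points are low-dose males, dark blue points high-dose males and red squares high-dose females. No value passed the test, and the 9 values of Dlgap1 lie between -0.02 and 0.10.

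The difference in response between females and males was tested as an interaction. None of the 9 members passed for Aro5, BPA5 or CPF3 in edgeR or in DESeq2, against 0.0984%, 0.0405% and 0.0463% of all genes in edgeR. An unadjusted p under 0.05 was reached by 2 members for Aro5, against 8.92% of all genes, and by 0 for BPA5 and CPF3, against 2.79% and 5.6%. The values nearest to it were in Aro5 pups, Dlgap2 with a log2 difference of -0.68 ± 0.29 (SE; adjusted p = 0.480) and Homer1 with -0.46 ± 0.21 (SE; adjusted p = 0.502). With pups inside the time window, Homer1 passed, with -0.78 ± 0.22 (SE; adjusted p = 0.0440), against 3.49% of all genes.

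Between the control routes none of the 9 members passed in either sex, in edgeR or in DESeq2, against 0.013% of all genes in males and 0% in females. An unadjusted p under 0.05 was reached by 1 member in females, against 4.29% of all genes, and by 0 in males. Dlgap2 was at 6.65, 7.27, 11.4, 11.5 and 13.4 CPM in CONF females and at 4.52, 6.23, 7.06, 7.10 and 8.57 CPM in CONSC females. These groups overlapped, and the log2 difference was -0.61 ± 0.22 (SE; adjusted p = 0.850). Of the 9 members, 8 were fitted lower in CONSC females, while 51.6% of all genes had positive differences. Form B was more frequent in CONF than in CONSC females, and Dlgap2 was higher by 0.51 in form B. The part of form in this comparison was not tested. In males the 9 differences lay between -0.09 and 0.14.

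The other density genes, receptors, inhibitory scaffold genes and immediate early genes gave no call in high-dose males of any chemical. In Aro5 males the smallest p values belonged to Frmpd4, with a log2 change of 1.21 (adjusted p = 0.166), and Cript, with -0.19, among the 27 density genes, and to Grm5, with 0.80, and Grin2a, with 0.61, among the 7 receptor genes.

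Within groups, the members varied to different degrees. After the mean of each group was subtracted, the SD of log2 CPM between pups was 0.112 for Dlgap1, higher than that of 8.02% of genes, 0.149 for Dlg4, 0.233 for Dlgap4, 0.255 for Shank3, 0.287 for Homer1, 0.292 for Shank1, 0.373 for Dlgap2, 0.435 for Dlgap3 and 0.467 for Shank2. Dlgap3, which had at least 353 counts in every pup, varied nearly as much as Shank2, which had as few as 34.

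Members also varied together. Of the 36 pairs, 10 (27.8%) had a Pearson r of 0.6 or more over the 64 pups and 6 (16.7%) had one below 0, against 2.93% and 50.6% of all pairs of 17367 genes. Shank1 and Dlgap4 had 0.889, Shank3 and Dlgap3 0.884, Shank1 and Dlgap3 0.788, Shank2 and Dlgap2 0.770, Shank1 and Shank3 0.768 and Dlgap4 and Dlg4 0.717. Homer1 ran against Dlgap3, with -0.616. In males, Homer1 and Dlgap3 had -0.722 (n = 41) and in females -0.344 (n = 23). Dlgap1 and Shank1 had 0.0126 in males and 0.861 in females. These values are descriptions, since the points share library preparation, depth and, in part, litters. Between both libraries of N2-2y, too, the one with more Dlgap3 had less Homer1.

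**Figure D5:**
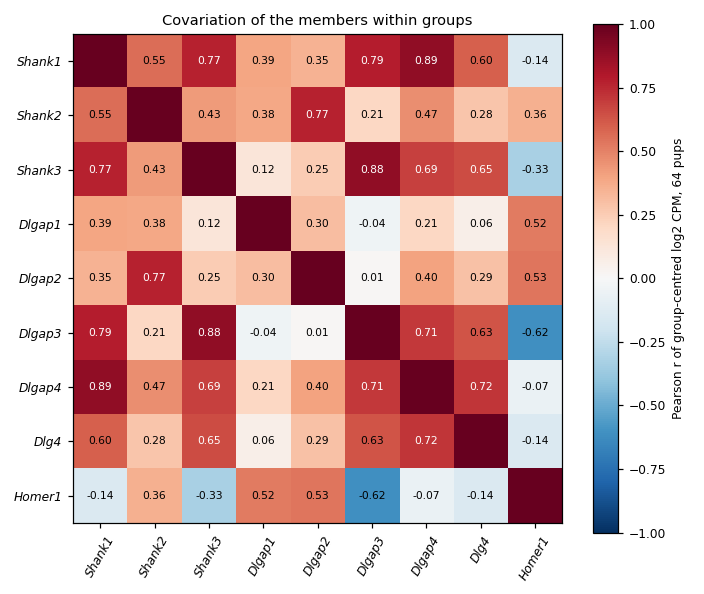
Pearson r between members of log2 CPM after subtraction of group means, over 64 pups; red squares are positive and blue squares negative. Shank1, Shank3, Dlgap3, Dlgap4 and Dlg4 form 1 block of positive values, Shank2 goes with Dlgap2 at 0.77, and Homer1 is lowest with Dlgap3 at -0.62.

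The summed level of 8 immediate early genes had a Pearson r of -0.164 with Homer1, 0.554 with Dlg4 and 0.456 with Shank3 within groups (n = 64, as a description). For the log2 of total counts the 9 values lay between -0.126 and 0.252, and for the time of collection between -0.310 and 0.217, Shank2 and Dlgap2 being lowest. Among 17367 genes, those most like each member over the 64 pups were Pacs1, Lingo1 and Trak1 for Shank1 (r = 0.947, 0.938 and 0.932) and Scn8a, Usp22 and Mlxip for Shank2 (0.867, 0.866 and 0.860). Shank3 went with Pacsin1, Panx2 and Slc25a23 (0.914, 0.905 and 0.896). For the SAPAP genes they were Hspa12a, Syt1 and Nov for Dlgap1 (0.823, 0.804 and 0.798), Shc3, LOC100912459 and Adcy1 for Dlgap2 (0.866, 0.860 and 0.854), Flywch1, Caskin1 and Aatk for Dlgap3 (0.951, 0.950 and 0.950) and Cic, Pitpnm2 and Arhgap33 for Dlgap4 (0.945, 0.939 and 0.935). Dlg4 was most like C2cd2l, Fbxl16 and Prkcz (0.950, 0.923 and 0.918), and Homer1 went with Ubxn2b and Lppr5 (0.917 and 0.910). No member was among the 3 genes most like another member.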

How the data were processed

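RNA-seq libraries of poly(A) RNA were made with a stranded kit and read single-end by the authors, who used STAR for alignment, featureCounts for counting and the rat build Rnor_6.0 (versions not given in the sources used here; kallisto is also listed in the submitters' processing notes). The deposited values are raw counts per gene and library, and the authors normalized nothing in them. The 66 libraries came from 64 pups, and both libraries of a pup were summed. Pups were grouped by their labels.

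CPM was computed here from each pup's total. Counts were tested with edgeR 4.0.16 (R 4.3.3) by its quasi-likelihood test after TMM scaling and filterByExpr, with Benjamini-Hochberg adjustment over all genes tested and a threshold of 0.05. Each dose was set against same-sex controls of both routes. SE is the log2 fold change divided by the square root of F. The numbers of a litter pair control pups of both sexes, since the labels name the litter. The correlation of deviations exceeded 0.1 in 1 of 7 litters. Pups of a litter share a dam, so that p-values treat as separate some pups that are not. The scripts were tested on simulated data.

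The 9 members are named in every comparison. Genes of other lists are named where their adjusted p is under 0.05 or, where none is, as the 2 with the smallest p. For likeness the 3 genes with the highest Pearson r were named. Some genes that these rules name are not reported here. The members and lists were chosen with earlier results of these data known. Alternatives were DESeq2 1.42.0 and its size factors, other filters, pups inside the time window, the name form as a covariate, the litter as a block, either library of pups with 2, and leaving out each pup. Controls of the same route alone, and a single pup per litter and sex, were further alternatives for some comparisons. The fits with form A libraries alone and with high-dose pups were added after seeing the data.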

Additional observations from a re-analysis of the deposited data

Results flagged for a closer look

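Of 117 groups of values, 1 member in 1 group each, 4 held a pup far from the others by Dixon's test, and chance gives about 1 in 20. Shank1 was at 1178 CPM in BPA5 female 79-4x, above 922 to 960 CPM in the other 3 pups. Dlgap3 was at 217 CPM in CPF3 male 36-3y, above 64.2 to 111 CPM in the other 6 pups. Dlgap4 was at 250.3 CPM in Aro5 female 117-6x, above 228 to 232 CPM in the other 4 pups, and at 186 CPM in CPF3 female 43-3x, below 235 to 245 CPM in the other 3 pups.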

How the results depend on the processing

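With the litter as a replicate block, 5 members in place of 7 were called between the sexes in controls and 0 in each interaction. The name form as a covariate, and form A libraries alone, also gave 5 members between the sexes. Inside the time window 2 members were called in Aro5 males and 1 in the Aro5 interaction, in place of 0. Between name forms in female controls DESeq2 called 2 members in place of 1, and leaving out 1 library gave 0 to 3. The mean of Dlgap4 in CONSC males was 152 CPM after TMM scaling and 157 CPM without it. The cause of these shifts was not tested. No called change reversed, and 45 uncalled member changes, and 68 when 1 pup was left out, altered sign. Over all genes, calls in Aro5 males ranged from 0 with the name form as a covariate to 818 inside the time window (32 as reported), and between the sexes from 1847 in form A libraries to 6928 in high-dose pups (4865 as reported). Calls in BPA5 and CPF3 males also fell to 0 with the name form as a covariate, and rose to 63 and 82 with DESeq2. In Aro0.5 males calls ranged from 0 inside the time window to 269 with DESeq2. In BPA0.5 males they ranged from 0 with controls of the same route to 39 with DESeq2. Leaving out 1 pup gave 25 to 176 calls in Aro5 males (67 without N2-2y and 176 without the Aro5 pup 108-1y), 25 to 39 in BPA5 males (31 as reported), 17 to 41 in CPF3 males (26 as reported; 17 without 35-5y and 41 without 10-2y), 0 to 322 in Aro0.5 males (20 as reported) and 0 to 31 in BPA0.5 males (7 as reported). Leaving out 1 library gave 64 to 1049 calls between name forms in female controls (237 as reported). Few counts limit the precision of Shank2 and Dlgap2.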
